A study of Mus musculus with 7 samples.

Results

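Fibroblast growth factors (FGFs) and their receptors were followed through 10 genes in mouse mammary gland, 6 ligands (Fgf1, Fgf2, Fgf7, Fgf10, Fgf13 and Fgf18) and 4 receptors (Fgfr1, Fgfr2, Fgfr3 and Fgfr4). The members were the probes whose gene name in the scanner files is one of these genes, control spots excluded, which gave 26 of 56605 probes. Of these, 20 passed the filter on dim probes, as did 34284 probes of the whole array, and every member kept at least 1 probe.

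The glands came from nulliparous adult FVB females of 20 to 25 weeks, all at diestrus, with 3 wild-type and 4 PRA transgenic animals and 1 array per animal. PRA transgenic mice overexpress the A isoform of the progesterone receptor (PR): GAL-4 under a cytomegalovirus promoter, which is not restricted to the mammary epithelium, switches on a PR-A gene placed behind GAL-4 binding sites, and the wild-type animals were littermates. RNA of a single abdominal gland, taken after the lymph nodes had been cut out, was labeled with Cy5 and competed on each array against the same Cy3-labeled reference, RNA pooled from mouse cell lines (Universal Mouse Reference RNA). The arrays are called here WT1 to WT3 and PRA1 to PRA4 after the labeled genotype and replicate number. The deposited file of WT3 is numbered otherwise than its label, and the label was used.

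Secreted FGFs bind heparan sulfate and receptor tyrosine kinases on neighboring cells, and the activated receptors signal mainly through the adaptor Frs2 to Ras, ERK and PI3 kinase. In the mammary gland, Fgf7 and Fgf10 are made by stroma and fat and act on the epithelial form of Fgfr2, and Fgf10 and Fgfr2 are needed for the embryonic mammary buds. Fgf1 binds every FGF receptor, Fgf2 acts mainly on the mesenchymal receptor forms, Fgf18 belongs to a group with its own receptor preference, and Fgf13 is an intracellular homologous factor that binds sodium channels and microtubules and is not a receptor ligand in the usual sense.

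A single slide carried the 7 arrays. The first row held the wild-type glands and the second row the PRA transgenic glands, and genotype cannot be told apart from row. Cy5 was well above background for 62.6% to 66.1% of probes on the wild-type arrays and for 56.6% to 60.2% on the PRA transgenic arrays, and no spot was saturated. Luminal (8 of 8), basal (7 of 7) and white adipocyte markers (8 of 8) had Cy5 well above background on all 7 arrays. Skeletal muscle markers (10 of 11 tested, Ckm not) stood apart, with a mean log2 ratio of 2.20 on WT1, 3.38 on WT3 and 2.94 on PRA4 and between -0.36 and -0.04 on the other 4 arrays. T cell markers (7 of 7 tested) were high on WT1 alone (2.05, against -0.25 to 0.41 elsewhere), as were B cell markers (4 of 5 tested, 0.71 against -1.46 to -0.87). The brightest probe of the progesterone receptor gene Pgr ranged from 4.04 to 7.05 in wild-type and from 3.32 to 5.38 in PRA transgenic glands, with WT1 highest and PRA4 lowest. Whether that probe lies in the transgene is not given in the sources used here, so it does not check the labels. In whole tissue, fewer cells of a type and less RNA per cell cannot be told apart.

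PRA transgenic and wild-type glands were compared for each member with limma on the log2 ratio of Cy5 to Cy3, with p-values adjusted over all 34284 probes. Fgf1, a ligand of all FGF receptors, was the single member with an unadjusted p under 0.05 and had a ratio 1.97-fold higher in PRA transgenic glands by its brightest probe. None of the 20 member probes passed an adjusted p of 0.05, as did 0.0117% of all probes, and the lowest adjusted p was 0.504. Unadjusted, 2 of the 20 probes had a p under 0.05, both of Fgf1 and both higher. Over all probes tested 9.02% had such a p, 4.54% higher and 4.48% lower. Counted by gene, 1 of 10 members was past that threshold, near the background. In no member probe tested did the ratios of the genotypes separate without overlap, whereas they did for 9.95% of all probes. The difference was above 0 for 11 and below 0 for 9 member probes, and over the brightest probes its median was -0.08, with 0.02 over all probes tested.

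**Figure D1:**
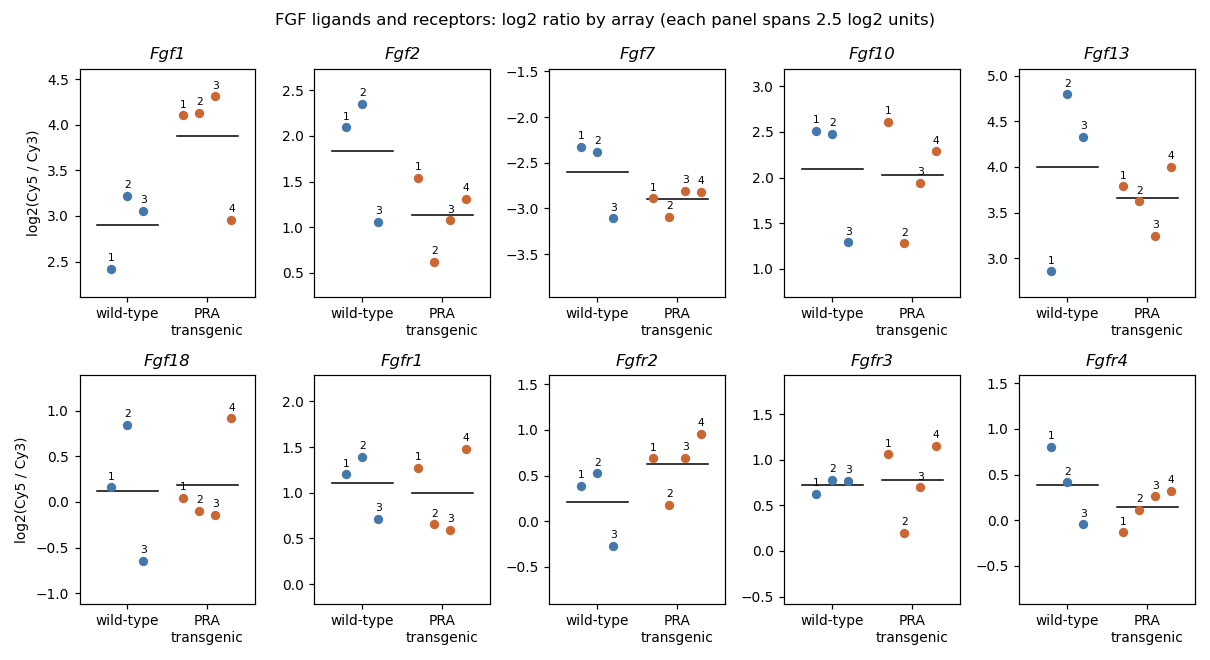
Log2 ratio of Cy5 to Cy3 (y axis) for the brightest probe of each FGF member in 3 wild-type (blue) and 4 PRA transgenic glands (orange), with replicate numbers beside the points and group means as bars. The genotypes overlap in every panel, and for Fgf1 PRA4 lies at 2.96 among the wild-type values while the other PRA transgenic glands lie at 4.10 to 4.31.

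Fgf1 had log2 ratios of 2.42, 3.22 and 3.06 in WT1, WT2 and WT3. In PRA1, PRA2, PRA3 and PRA4 the ratios were 4.10, 4.13, 4.31 and 2.96. Thus 3 PRA transgenic glands lay above every wild-type gland and PRA4 lay inside the wild-type range. The log2 fold change was 0.98 (SE 0.36, 95% confidence interval 0.12 to 1.83, unadjusted p under 0.05, adjusted p = 0.504 by limma). Another Fgf1 probe, A_55_P2728202, had ratios of 0.28, 0.70 and 1.21 in wild-type and of 1.66, 1.68, 1.89 and 0.83 in PRA transgenic glands. It showed the same order among the PRA transgenic animals, with PRA4 lowest, and a log2 fold change of 0.78 (SE 0.31, unadjusted p under 0.05, adjusted p = 0.532 by limma). The remaining Fgf1 probe was not tested, since its Cy5 was well above background on 0 of 3 wild-type and 2 of 4 PRA transgenic arrays.

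The channels were also read separately, each as its log2 signal minus the 75th percentile of the array. Cy5 alone gave Fgf1 values of -2.11, -1.70 and -1.64 in wild-type and of -0.05, 0.25, 0.80 and -1.50 in PRA transgenic glands. On this scale the genotypes did not overlap, with PRA4 just above the highest wild-type gland. Fgf1 was the 1 of 20 member probes to separate, where 9.77% of all probes did so and 5.4% with PRA transgenic above. The log2 difference was 1.69 (SE 0.50, 95% confidence interval 0.52 to 2.86, adjusted p = 0.434 by limma), 1 of 20 member probes with an unadjusted p under 0.05 on this scale, against 8.95% of all probes (4.69% higher). No member probe passed an adjusted p of 0.05, as did 0.0146% of all probes. The Cy3 channel, which holds the same reference RNA on every array, was itself higher by 0.72 on the PRA transgenic arrays for this probe, and so took up part of the Cy5 difference in the ratio. For the probe A_55_P2728202, whose Cy3 was well above background on 0 of the 7 arrays, Cy5 alone differed by 0.60 and Cy3 by -0.18. Why the reference channel differed was not tested.

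**Figure D2:**
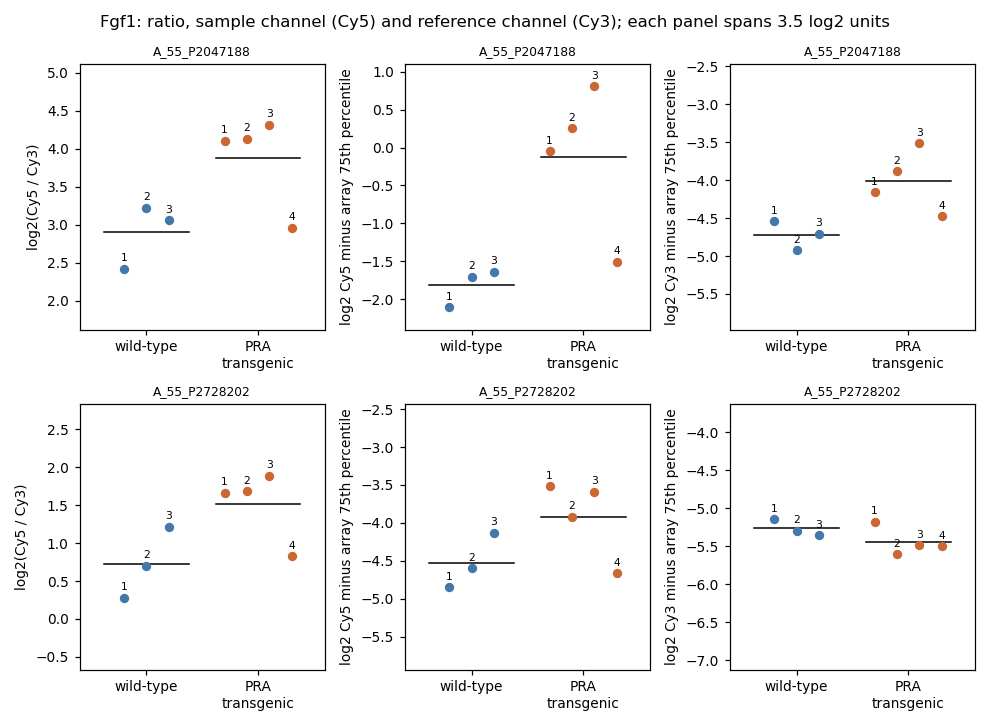
Fgf1 by array for the brightest probe (top) and the other tested probe (bottom), as log2 ratio (left), Cy5 alone (middle) and Cy3 alone (right), points being animals with replicate numbers and bars group means. Cy5 of the brightest probe lies at -2.11 to -1.64 in wild-type, at -0.05 to 0.80 in PRA1 to PRA3 and at -1.50 in PRA4, and its Cy3 is also higher in PRA transgenic arrays.

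The unadjusted Fgf1 call rested on few animals. Without PRA4 the log2 fold change was 1.28 (adjusted p = 0.228 by limma). The unadjusted p no longer fell under 0.05 without WT1 (log2 fold change 0.73), WT3 (1.06), PRA1 (0.90), PRA2 (0.89) or PRA3 (0.83), nor by the methods' t-test on all arrays. By the mean of their list, muscle markers were high on WT1, WT3 and PRA4 and low on WT2, PRA1, PRA2 and PRA3. Mb and Myh4 departed from this, while the other tested markers followed it. Mb was highest on PRA2 (4.83) and WT3 (4.80), and Myh4 on PRA3 (0.47) and PRA1 (0.47). By its brightest probe Fgf1 stood at 2.42, 3.06 and 2.96 on WT1, WT3 and PRA4. It stood at 3.22 on WT2 and at 4.10 to 4.31 on PRA1 to PRA3. By A_55_P2728202, WT2 (0.70) lay below WT3 (1.21) and PRA4 (0.83) and above WT1 (0.28). The part of muscle in the Fgf1 values was not tested.

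Fgf2, the basic fibroblast growth factor, had log2 ratios of 2.10, 2.35 and 1.06 in wild-type and of 1.54, 0.62, 1.08 and 1.31 in PRA transgenic glands. WT1 and WT2 lay above every PRA transgenic gland and WT3 lay among them. The log2 fold change was -0.70 (SE 0.35, 95% confidence interval -1.53 to 0.13, limma adjusted p = 0.611), and that of Cy5 alone was -0.29, since Cy3 differed by 0.41. Cy3 was well above background on 4 of 7 arrays. Without WT3 the log2 fold change was -1.09 with an unadjusted p under 0.05 (adjusted p = 0.569 by limma), and without WT2 it was -0.44. The other tested probe, A_51_P399845, spans an intron and gave -0.46 (SE 0.65), and -0.19 by Cy5 alone. Its Cy3 was well above background on 0 of 7 arrays.

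Fgf10, the stromal ligand of the epithelial Fgfr2 form, had log2 ratios of 2.51, 2.48 and 1.29 in wild-type and of 2.61, 1.28, 1.94 and 2.29 in PRA transgenic glands. Each genotype held 1 low gland, WT3 and PRA2, and the log2 fold change was -0.06 (SE 0.41, 95% confidence interval -1.03 to 0.90). A probe in the coding sequence, A_65_P13771, had ratios of 4.42, 2.62 and 1.34 in wild-type and of 3.44, 2.24, 3.05 and 2.92 in PRA transgenic glands, with a log2 fold change of 0.12 (SE 0.68). WT3 was the lowest gland and PRA2 the next by this probe, while the brightest probe put PRA2 and WT3 at nearly the same value. Its Cy3 was well above background on 0 of 7 arrays, so the ratio has a reference at the limit of measurement.

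The coding probes of Fgf2 and Fgf10 are shown because they read the corresponding stretch of the conserved FGF core. They are copied 5′ to 3′ from the deposited scanner files, with mm9 positions chr3:37303539-37303598 and chr13:119577931-119577990, both on the plus strand, and capitals mark the bases that are identical at the same place in both.
Fgf2 A_52_P376768: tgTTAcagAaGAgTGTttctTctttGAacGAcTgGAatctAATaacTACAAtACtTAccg
Fgf10 A_65_P13771: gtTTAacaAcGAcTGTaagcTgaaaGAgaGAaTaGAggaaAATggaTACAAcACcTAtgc
In both, the frame that starts at the second base is free of stop codons. They share 29 of 60 bases (48.3%) and 3 of the 19 whole codons of that frame. The brightest probe of Fgf2 is thus a coding probe, whereas the brightest probe of Fgf10 lies further downstream, at chr13:119580365-119580424.

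Fgf7, or keratinocyte growth factor, had a ratio below the reference on every array, at -2.33, -2.38 and -3.11 in wild-type and at -2.89, -3.09, -2.81 and -2.82 in PRA transgenic glands. The PRA transgenic glands lay close together, inside the wild-type range, and the log2 fold change was -0.30 (SE 0.21, 95% confidence interval -0.79 to 0.20, limma adjusted p = 0.730). Without WT3 it was -0.55 with an unadjusted p under 0.05 (adjusted p = 0.571 by limma), and without WT1 or WT2 it was -0.16 or -0.18. Fgf18 had log2 ratios of 0.16, 0.85 and -0.65 in wild-type and of 0.05, -0.10, -0.14 and 0.92 in PRA transgenic glands. WT2 and PRA4 were the high glands and WT3 the low one, and the log2 fold change was 0.06 (SE 0.40).

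Fgf13, the intracellular factor, had log2 ratios of 2.86, 4.80 and 4.33 in wild-type and of 3.79, 3.62, 3.25 and 4.00 in PRA transgenic glands by its brightest probe. All PRA transgenic values lay between the lowest and the highest wild-type gland, and the log2 fold change was -0.33 (SE 0.45, limma adjusted p = 0.876). Cy3 of this probe was well above background on 0 of 7 arrays, so these ratios stand on a reference at the limit of measurement, and Cy5 alone differed by -0.11. Without WT1 the log2 fold change was -0.90 with an unadjusted p under 0.05 (adjusted p = 0.496 by limma), and without WT2 it was 0.07. The other probes gave 0.09 (A_52_P267243) and 0.12 (A_55_P2139814), the latter with Cy5 well above background on only 1 of 4 PRA transgenic arrays. WT1 was the lowest wild-type gland by the brightest probe but not by A_52_P267243, where WT3 was lowest (1.43, with 2.20 in WT1).

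Among the receptors no probe had an unadjusted p under 0.05. Fgfr2, whose epithelial form receives Fgf7 and Fgf10, had log2 ratios of 0.39, 0.53 and -0.27 in wild-type and of 0.69, 0.18, 0.69 and 0.96 in PRA transgenic glands. PRA1, PRA3 and PRA4 lay above every wild-type gland and PRA2 lay among them. The log2 fold change was 0.42 (SE 0.25, 95% confidence interval -0.18 to 1.01, limma adjusted p = 0.682), and 0.17 without WT3. The other Fgfr2 probe was not tested, with Cy5 well above background on 2 of 3 wild-type and 1 of 4 PRA transgenic arrays. Neither probe was used here to tell the receptor's splice forms apart.

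Fgfr1, a receptor widely used by mesenchymal cells, had log2 ratios of 1.20, 1.39 and 0.71 in wild-type and of 1.27, 0.65, 0.59 and 1.48 in PRA transgenic glands. The high glands, WT1, WT2, PRA1 and PRA4, and the low glands, WT3, PRA2 and PRA3, came from both genotypes, and the log2 fold change was -0.10 (SE 0.28, 95% confidence interval -0.76 to 0.55). Its 4 probes differed in sign along the gene. From 5′ to 3′ the log2 fold changes were 0.43 (SE 0.36), 0.23 (SE 0.27), -0.10 and -0.45 (SE 0.31), every interval including 0, and the difference between probes was not tested.

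The receptor probes below are shown because they read coding sequence, so that the gene part behind each value can be seen. That of Fgfr1 lies in the kinase domain, at chr8:26682852-26682911 on the plus strand. That of Fgfr2, at chr7:137307473-137307532 on the minus strand, ends in a stop codon of the first frame, given in capitals. That of Fgfr3, at chr5:34077856-34078090 on the plus strand, covers 235 genomic bases with its 60 and so crosses an intron.
Fgfr1 A_65_P11598: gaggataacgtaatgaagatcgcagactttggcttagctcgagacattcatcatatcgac
Fgfr2 A_55_P2094881: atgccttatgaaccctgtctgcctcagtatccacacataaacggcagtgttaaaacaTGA
Fgfr3 A_65_P06147: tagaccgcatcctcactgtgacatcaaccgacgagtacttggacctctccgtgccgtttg

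Fgfr3 had log2 ratios of 0.63, 0.78 and 0.77 in wild-type and of 1.06, 0.20, 0.70 and 1.15 in PRA transgenic glands. The wild-type glands were close together and the PRA transgenic glands lay on either side of them, with a log2 fold change of 0.05 (SE 0.24). The intron-crossing probe gave ratios of 0.96, 0.26 and 0.77 in wild-type and of 2.40, 0.47, 1.43 and 1.30 in PRA transgenic glands. PRA1, PRA3 and PRA4 lay above every wild-type gland by that probe, but its log2 fold change of 0.73 had an SE of 0.43 (limma adjusted p = 0.665) and its Cy3 was well above background on 0 of 7 arrays. Fgfr4 had log2 ratios of 0.80, 0.41 and -0.05 in wild-type and of -0.13, 0.11, 0.26 and 0.32 in PRA transgenic glands, and a log2 fold change of -0.25 (SE 0.22, limma adjusted p = 0.785). Without WT1 it was -0.04 and without WT3 -0.47, and Cy3 was well above background on 2 of 7 arrays. The other tested Fgfr4 probe gave -0.09 (SE 0.36). Its Cy5 was well above background on 2 of 4 PRA transgenic arrays and its Cy3 on 0 of 7 arrays.

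**Figure D3:**
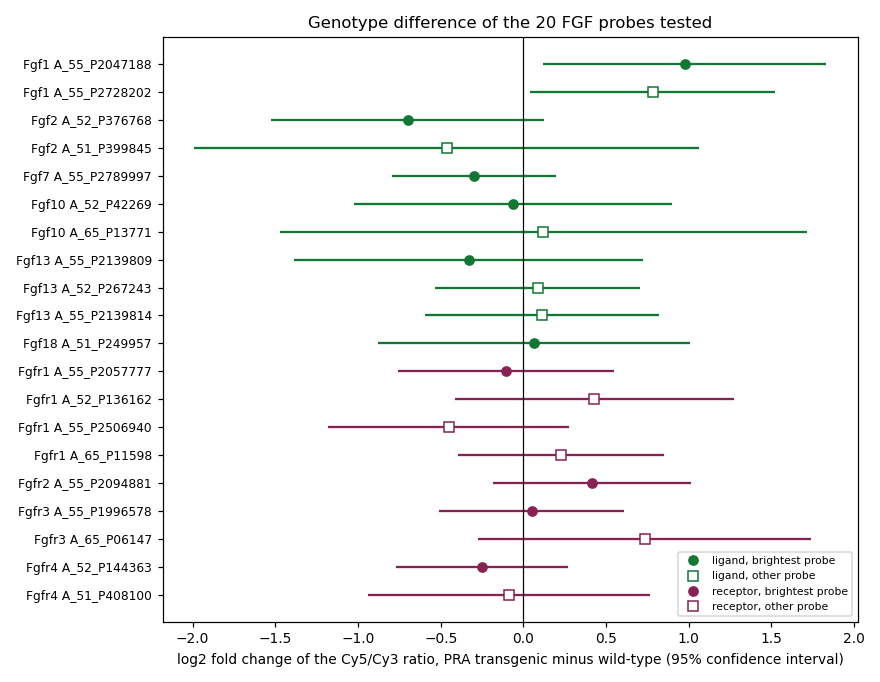
Log2 fold change of the Cy5 to Cy3 ratio, PRA transgenic minus wild-type (x axis), with its 95% confidence interval for each of the 20 FGF probes tested, ligands in green, receptors in purple, brightest probes filled. The intervals of the 2 Fgf1 probes lie above 0, and the other 18 include 0.

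The members varied more between animals of a genotype than probes in general. The SD within genotypes had a median of 0.47 over the 10 brightest probes, 0.58 for the ligands and 0.35 for the receptors, with 0.27 over all probes tested. It ran from 0.29 for Fgf7 to 0.69 for Fgf13, whose Cy3 was well above background on 0 of 7 arrays. Cy3 alone of that Fgf13 probe spanned 1.43 log2 units over the arrays and Cy5 alone 1.21. For Fgf10 a log2 difference as low as -1.03 or as high as 0.90 lay within its interval.

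The same glands tended to be low. WT3, PRA2 and PRA3 were the lowest 3 arrays for 4 of the 10 brightest probes, Fgf2, Fgf10, Fgf18 and Fgfr1, and for 8 of the 20 member probes tested, against 7.12% of all probes tested. This trio was picked after its values were seen, and the probes of a gene share a transcript, so the count is a description. PRA2 was among the lowest 3 arrays for 9 of the 10 brightest probes, WT3 for 8 and PRA3 for 6, while WT2 was so for 0, PRA4 for 1 and PRA1 for 2. The other 6 members had other lowest arrays: WT3, PRA1 and PRA2 for Fgf7 and Fgfr4, WT1, PRA2 and PRA3 for Fgf13 and Fgfr3, WT1, WT3 and PRA2 for Fgfr2, and WT1, WT3 and PRA4 for Fgf1. Fibroblast markers (6 of 6 tested) were low on WT3, PRA1, PRA2 and PRA3 (2.20 to 2.27) and high on WT1, WT2 and PRA4 (2.66 to 2.79). White adipocyte markers were lowest on PRA2 (5.79) and WT3 (5.82) and highest on PRA1 (6.52). By the ratio, endothelial markers (6 of 6 tested) were lowest on PRA2 (4.81) and WT3 (4.93). By Cy5 alone the endothelial markers were lowest on WT3 (-0.04) and WT1 (0.11), with 0.25 on PRA2. Cy3 was well above background on 0 of 7 arrays for Cdh5 and on 1 of 7 each for Kdr, Tek and Emcn. For Pecam1 and Vwf it was so on all 7. Epithelial markers were not low on PRA2 and WT3. Basal markers were highest on PRA2 (2.97, with 2.57 to 2.90 elsewhere, 2.88 on WT3 and 2.90 on PRA3). Luminal markers stood at 3.71 on PRA2 and 3.54 on WT3, within 3.16 to 3.75 over all arrays, but were lowest on PRA3 (3.16). The part of these cell types in the low FGF values was not tested.

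**Figure D4:**
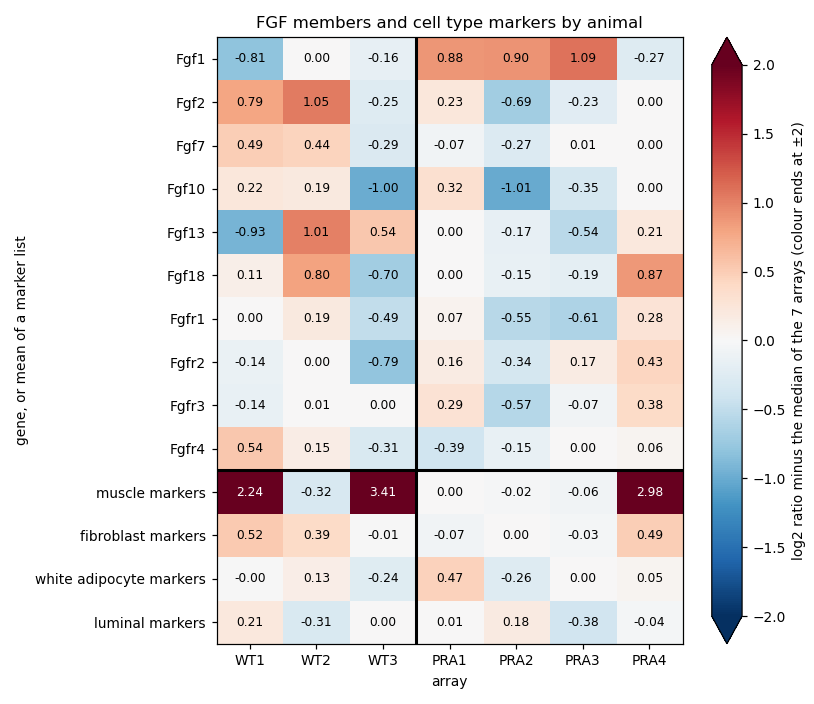
Log2 ratio minus the median of the 7 arrays (color, with the value in each cell) for the brightest probe of each FGF member and for the mean of 4 marker lists, by array. Fgf10 is lowest in WT3 and PRA2 (-1.01), Fgf1 at 0.88 to 1.09 in PRA1 to PRA3, and muscle markers are at 2.24 to 3.41 in WT1, WT3 and PRA4.

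For the members whose arrays spanned more than 1 log2 unit, the genes with the most similar values over the 7 arrays were found as the lowest root mean square difference among 16827 genes, each centered on its own median. Nearest to Fgf1 were Dnase1l2 (0.16) and Scn10a (0.19), where the median gene differed by 0.74. Nearest to Fgf2 were Rai2 (0.19) and Gpm6a (0.20), and nearest to Fgf10 were Cst3 (0.17) and Lncpint (0.18). Fhl1 (0.23) and Gm46901 (0.24) followed Fgf13 most closely, Rcan2 (0.14) and Diras2 (0.15) followed Fgf18, and Evc (0.10) and 8030453O22Rik (0.12) followed Fgfr2. With 7 arrays and many genes, close matches are found for most patterns.

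The rest of the pathway was read from lists of 87 other genes, of which 75 were tested by their brightest probe. Of these 6 had an unadjusted p under 0.05 (8%), 4 higher and 2 lower in PRA transgenic glands, near the 9.02% of all probes, and none passed an adjusted p of 0.05 (lowest 0.352 by limma). The median log2 fold change over the 75 genes was -0.00055, with 36 above and 39 below 0.

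Among the co-receptors and partners (6 of 8 tested, 1 higher and 0 lower at p under 0.05), Klb, the co-receptor that lets Fgf21 bind Fgfr1, had log2 ratios of 5.25, 5.72 and 5.15 in wild-type and of 6.68, 6.16, 6.24 and 6.09 in PRA transgenic glands. Every PRA transgenic gland lay above every wild-type gland. The log2 fold change was 0.92 (SE 0.20, limma adjusted p = 0.352), that of its other probe was 0.39, and Cy5 alone differed by 0.40, past no threshold. The Klb ratio had Cy3 well above background on 3 of 7 arrays only. Fgf21 itself, the hepatic and adipose hormone among the other secreted ligands (5 of 13 tested, none at p under 0.05), had a log2 fold change of -0.49 (SE 0.33). Fgf3, Fgf4, Fgf5, Fgf15, Fgf16, Fgf17, Fgf20 and Fgf22 were not tested. Of the other intracellular factors (2 of 3 tested), Fgf11 gave 0.20 (SE 0.24).

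Heparan sulfate presents FGFs to their receptors. Of its core proteins (12 of 12 tested), Hspg2, or perlecan, was the one with a p under 0.05, with ratios of 0.05, 0.96 and 0.33 in wild-type and of 0.04, -0.29, -0.24 and 0.05 in PRA transgenic glands. Its genotypes overlapped only in that WT1 lay just below PRA4, and the log2 fold change was -0.55 (SE 0.23, limma adjusted p = 0.542), with 0.02 by its other probe. Of the synthesis and sulfation enzymes (12 of 12 tested), Ext2, which lengthens the chain, gave 0.42 (SE 0.16, limma adjusted p = 0.511) with overlapping genotypes.

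Of the adaptors and docking proteins none of 13 had a p under 0.05, and the lowest p there belonged to Cbl, the ubiquitin ligase that turns receptors over. In the Ras, ERK and PI3 kinase cascade (12 of 12 tested) Pik3r1, the regulatory subunit of PI3 kinase, had ratios of 0.64, 1.28 and 0.23 in wild-type and of 1.66, 1.12, 1.58 and 1.90 in PRA transgenic glands. PRA2 alone fell below WT2, and the log2 fold change was 0.85 (SE 0.29, limma adjusted p = 0.463) and 0.85 by Cy5 alone. Among the feedback inhibitors (8 of 9 tested), the ERK phosphatase Dusp6 had a log2 fold change of -0.50 (SE 0.15, limma adjusted p = 0.421) and the receptor antagonist Il17rd of 0.39 (SE 0.12, limma adjusted p = 0.433), both without overlap between genotypes. By Cy5 alone Dusp6 differed by -0.46 and Il17rd by 0.20, the latter past no threshold, and the other Il17rd probes gave 0.12 and 0.20. Of the ETS and cell cycle targets (5 of 5 tested) none had a p under 0.05, and Fosl1 had the lowest, with a log2 fold change of 0.25 (SE 0.12). Among the 75 pathway genes, genotypes did not overlap for Klb, Dusp6, Il17rd, Sdc2, Nras and Fosl1, nor for 9.95% of all probes tested.

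**Figure D5:**
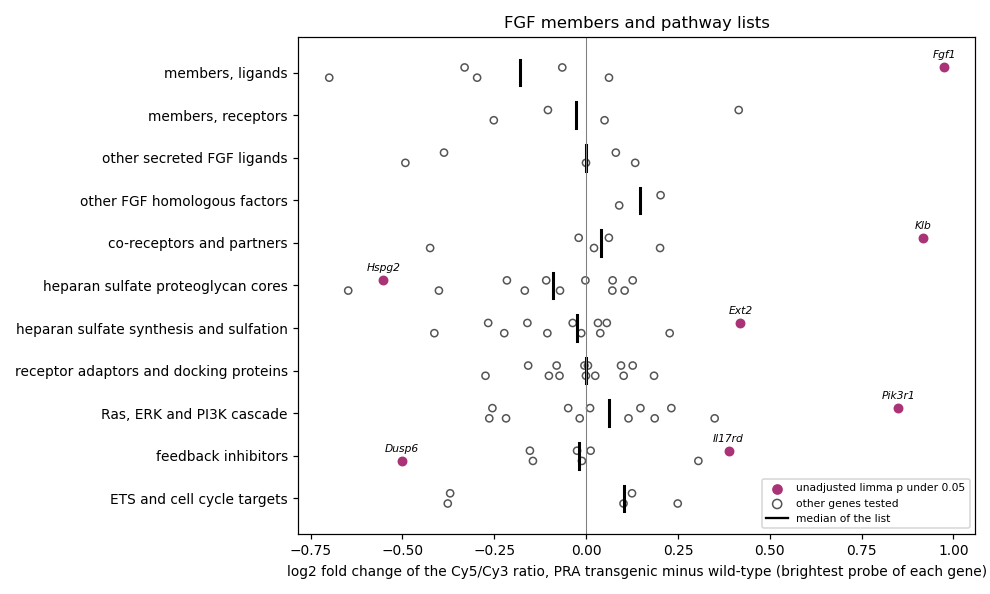
Log2 fold change of the brightest probe of each gene, PRA transgenic minus wild-type (x axis), by list (rows), with list medians as bars and genes of unadjusted limma p under 0.05 filled and named. Fgf1 (0.98), Klb (0.92) and Pik3r1 (0.85) lie furthest to the right, and Hspg2 (-0.55) and Dusp6 (-0.50) are the named genes on the left.

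RefSeq promoter windows of GRCm38.p6, 300 bases around each start, were at hand for 8 of the 10 members, in 12 windows, and not for Fgf1 and Fgfr1. The half-site TGTTCT, 1 arm of the element to which the progesterone receptor binds, was searched on both strands. It was in 1 of the 12 windows, of Fgf13, and in 19.0% of all 32851 windows. The GC box GGGCGG was in 8 of the 12 and in 35.7% of all. These are matches of letters in short windows.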

How the data were processed

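The authors deposited Agilent Feature Extraction output for 7 arrays, with processed intensity values that the software had background-subtracted and dye-normalized (version 12.0 in the processing notes, 11.5.1.1 in the file headers), and a table of log2 values, which matched the centered log2 ratios of these intensities in the deposited files. Positions of probes were taken as printed there (mm9), without exon annotation.

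Controls and outlier spots were dropped, replicate spots averaged, and log2(Cy5/Cy3) was taken. A probe was tested if its Cy5 was well above background in every wild-type or in every PRA transgenic gland. Tests used lmFit and eBayes of limma 3.58.1 (R 4.3.3) with Benjamini-Hochberg adjustment. Cy5 and Cy3 were also each scaled to the 75th percentile of the array. The brightest probe in Cy5 stood for a gene. Steps were tested on simulated data. Names of other genes were updated from RefSeq (GRCm38.p6), by accession for 33903 probes, by symbol for 9458, by an older symbol for 488, and kept for 12756.

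Named were all members, in each list the genes with unadjusted p under 0.05 or else that with the lowest p, and the 2 nearest genes of members that spanned more than 1 log2 unit. Members and lists were chosen with earlier results of these data known. Alternatives were another background correction (normexp, offset 50, then loess), the log2 table, 2 other filters, the methods' t-test, Cy5 alone, quantile normalization, array weights, a replicate block, an intensity trend, outlier spots kept, the median over probes and each array left out. The number of arrays limits the precision. The sequence of 1 Fgfr1 probe is not reported here.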

Additional observations from a re-analysis of the deposited data

Results flagged for a closer look

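Of 31 groups of 4 PRA transgenic arrays examined for a gland far from the others, 4 had one, where chance gives about 1 in 20, or 1.55. All 4 concerned PRA4. The groups hold the same 4 animals and are not independent, so 1 unusual gland can give several of them and the count is a description. Its Fgf1 log2 ratio (2.96, the others 4.10 to 4.31) left a gap of 0.846 of the group's range. Fgf18 by Cy5 alone (-1.17, the others -2.40 to -2.30) gave 0.923. The mean of the muscle markers (2.94, the others -0.10 to -0.04) gave 0.979, and that of the fibroblast markers (2.76, the others 2.20 to 2.27) gave 0.870. Fgf1 was low and the other 3 values were high in that gland, and whether they are related was not tested.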

How the results depend on the processing

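No member probe passed an adjusted p of 0.05 under any of the alternatives. The count of member probes with an unadjusted p under 0.05 was 2 as reported (all probes 3093 of 34284). It was 1 with both channels above background on all arrays (all probes 2209 of 24650) and 1 by Cy5 alone (3068 of 34284). By the methods' t-test it was 0 (all probes 3157 of 34284). When arrays were left out in turn it was 0 to 3 (all probes 2280 to 4233 of 34284). Over all probes, 4 passed the adjusted threshold as reported, 15 without a filter, 1 by the t-test and 11 with array weights. That count was 0 with the replicate number as a block and 1 to 12 with an array left out. An unadjusted p under 0.05 was found for 3093 of 34284 probes as reported and for 5154 of 56605 without a filter. Of 130 pathway probes, 12 had an unadjusted p under 0.05 as reported, 7 with the replicate block (all probes 3370) and 7 to 13 with an array left out (all probes 2280 to 4233).

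Of 184 recomputed member fold changes 165 kept their sign, and Fgf1 stayed above 0 throughout (0.73 to 1.28 with an array left out, 1.28 with the replicate block). The other 19 were of 5 members. Part of the kept signs was fixed in advance. The 2 other filters, the methods' t-test and the intensity trend use the same ratios and cannot change a fold change. The log2 table and the kept outlier spots gave nearly the same values. With an array left out Fgf10 ran from -0.47 to 0.18, Fgf13 from -0.90 to 0.0703, Fgf18 from -0.32 to 0.43, Fgfr1 from -0.30 to 0.041 and Fgfr3 from -0.0745 to 0.24. By the median over probes Fgf10 was 0.0281, Fgf13 0.0858 and Fgfr1 0.062. Quantile normalization put Fgf10 at 0.0516, array weights put Fgf18 at -0.091 and Fgfr3 at -0.0198, and the replicate block put Fgf18 at -0.18 and Fgfr3 at -0.0745. The block is no separate check of a fold change. Only PRA4 carries replicate number 4, so the block gives the same fold change as leaving PRA4 out. The cause of the other sign changes was not tested.

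The labels do not give the litters. Replicate numbers did not consistently follow similarity: deviations of same-numbered arrays from their genotype means correlated at 0.0997, -0.2974 and 0.0362, and WT3 correlated best with PRA2 (0.3815). The block and these values rest on the labels' numbers, with which the file of WT3 does not match. A slide block had 1 level and could not be fitted. Dim Cy3 limits the ratios of several other probes.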
